A study of Mus musculus with 24 samples.

Results

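Cells read the presence of foreign or misplaced nucleic acid through a small set of receptors. In the RIG-I-like receptor family, Ddx58 (RIG-I) and Ifih1 (MDA5) bind double-stranded or 5′-triphosphate RNA in the cytosol and pass the signal through caspase recruitment domains to Mavs, an adaptor on the outer mitochondrial membrane, while Dhx58 (LGP2) binds RNA but has no such domains and tunes the other receptors. Tlr3 reads double-stranded RNA inside endosomes, Zbp1 binds Z-form nucleic acid and can start necroptosis through Ripk3 and Mlkl, Eif2ak2 (PKR) is a kinase that halts translation when it binds double-stranded RNA, and Adar edits adenosine to inosine in such RNA and so makes endogenous RNA less visible to the receptors. In β cells the family is studied because viral infection and interferon signalling accompany type 1 diabetes, and most of its genes are themselves induced by interferon.

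These 8 genes were taken by symbol from a table of 17696 genes, and no expression value entered the rule. The members were, however, chosen with earlier results of these data known. They are often grouped as cytosolic nucleic acid sensors, a name that covers the members unevenly, since Tlr3 works in endosomes, Mavs is an adaptor and Adar an editing enzyme. In mm10 (GENCODE M21), Ifih1 spans chr2:62595793-62646255, Ddx58 chr4:40203777-40239825, Dhx58 chr11:100694884-100704271, Zbp1 chr2:173206612-173218922, Tlr3 chr8:45395665-45410619 and Eif2ak2 chr17:78852550-78882572, all on the minus strand. Mavs spans chr2:131234063-131248024 and Adar chr3:89715022-89753455, both on the plus strand.

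RNA-seq was performed on MIN6, an insulinoma-derived β cell line of the mouse. Lentiviral transduction gave 3 stable lines, which carried a scrambled sequence (Scr), an inhibitor of miR-146a-5p (ZIP) or a miR-146a-5p overexpression construct (OE). All of them went through 7 days of selection in 1 µg/ml puromycin and were grown from picked clones. Each line therefore stands for its clone, and an effect of the construct cannot be told apart from a difference between clones. By the study's methods Scr and ZIP share a type of vector with copGFP as reporter, while OE carries another vector with Turbo RFP. OE thus also differs from Scr and ZIP in vector and reporter, which cannot be told apart from the microRNA either. Each line was left untreated or was treated for 24 h with IL-1β at 5 ng/ml, IFNγ at 100 ng/ml and TNFα at 10 ng/ml (Scr+Cy, ZIP+Cy and OE+Cy), with 4 libraries in each of the 6 groups. In the labels, libraries of the same replicate number carry the same sample code in all 6 groups, and what the code stands for is not given. The sources used here do not say whether the replicates were separate cultures, so p-values measure the spread between these libraries, which may be technical.

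Libraries held 26657792 to 37168232 reads assigned to genes, with a median of 30701023. Levels are given as CPM, the reads of a gene scaled by library size and TMM factor. In bulk RNA, fewer cells expressing a gene and less of its RNA per cell cannot be told apart. The summed level of β cell markers was high in every library, although Ucn3 averaged only 0.197 CPM in Scr and 0.187 in ZIP. The summed CPM of 10 markers ran from 18756 to 25050 in Scr, from 28374 to 30905 in ZIP and from 40112 to 43788 in OE, and from 19595 to 33004 in the treated groups. Single markers went both ways between untreated OE and Scr. Mean CPM was lower in OE for Pdx1 (627 against 824), Nkx6-1 (167 against 254), Mafa (716 against 1050) and G6pc2 (1895 against 3184). It was higher in OE for Ins1, Ins2, Iapp, Slc2a2, Ucn3 and Slc30a8. Of 10 immune cell markers 7 were listed, the leukocyte marker Ptprc stayed at or below 0.422 CPM, and C1qa, between 3.47 and 27.9 CPM, made up most of their summed level of 5.29 to 30.3 CPM. The 3 libraries Scr replicate 1, ZIP replicate 1 and Scr+Cy replicate 1 stood apart by 6 connective tissue markers. Their summed level reached 18.9, 54.0 and 58.7 CPM there and was at most 7.95 CPM in every other library. Results are therefore also given without these 3 libraries where that changed a call, and the part of this material in the sensor levels was not tested.

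Sequences around 3 motifs are shown because the families of factors that bind them act downstream of IFNγ, IL-1β and TNFα. RefSeq promoter windows of 300 bases (build GRCm38.p6) were held for 6 of the 8 genes, all but Dhx58 and Zbp1, and both strands were searched. The interferon-stimulated response element was searched as GAAANNGAAA, the gamma-activated site as TTCNNNGAA, and the NF-κB site by its kappa B consensus. The response element stood in 3.443% of 32851 windows of all genes, the gamma-activated site in 8.298% and the kappa B consensus in 6.925%. Among the 6 genes the response element was found in 3 windows, the gamma-activated site in 2 and the kappa B consensus in 1, and the Mavs window held none. The windows are written 5′ to 3′ on the strand of the gene, with the motif in capitals and with the distance of its first base from the start that RefSeq gives for the window. These starts are not always the ends of the gene spans above. Those used for Tlr3 and for the Adar site lie inside the spans, and Adar had 3 windows, of which 1 held the site.
Ifih1, response element at 32, chr2:62646206-62646233 (minus strand): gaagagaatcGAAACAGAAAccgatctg
Ddx58, response element on the opposite strand at 2, chr4:40239804-40239833 (minus strand): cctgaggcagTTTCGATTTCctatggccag
Eif2ak2, response element at 18, chr17:78882535-78882564 (minus strand): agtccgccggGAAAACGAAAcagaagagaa
Eif2ak2, gamma-activated site at -178, chr17:78882732-78882760 (minus strand): ctgcagagctTTCCCAGAAtggaagccag
Adar, gamma-activated site at 22, chr3:89730730-89730758 (plus strand): gggaagccttTTCAAGGAAacgaaagtga
Tlr3, kappa B consensus at -211, chr8:45410572-45410601 (minus strand): agttgtttctGGGAGTTTCCtgcttttgag
A match describes letters in the window and is no evidence of binding.

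The microRNA that the ZIP and OE constructs were made to alter is shown because its seed, bases 2 to 8 in capitals, guides its pairing with transcripts. Its hairpin lies on the minus strand of chromosome 11, and the mature strand covers chr11:43374435-43374456 (GRCm38.p6).
mmu-miR-146a-5p: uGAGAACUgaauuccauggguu
The matching site in a transcript reads AGTTCTC. In the 3′ UTRs of GENCODE release M21, 1 such site was found in Adar, in its 2 transcripts with a UTR of 2271 bases, and 0 in the other 7 genes. Only this exact match was searched, so shorter seed matches may be present. The share of all genes that hold the site was not computed. The microRNA itself was not analysed here. By the paper's qRT-PCR its level in untreated cells was raised in OE, while ZIP showed no change from Scr. Cytokines raised it in every line, far more in Scr than in ZIP or OE.

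**Figure D1:**
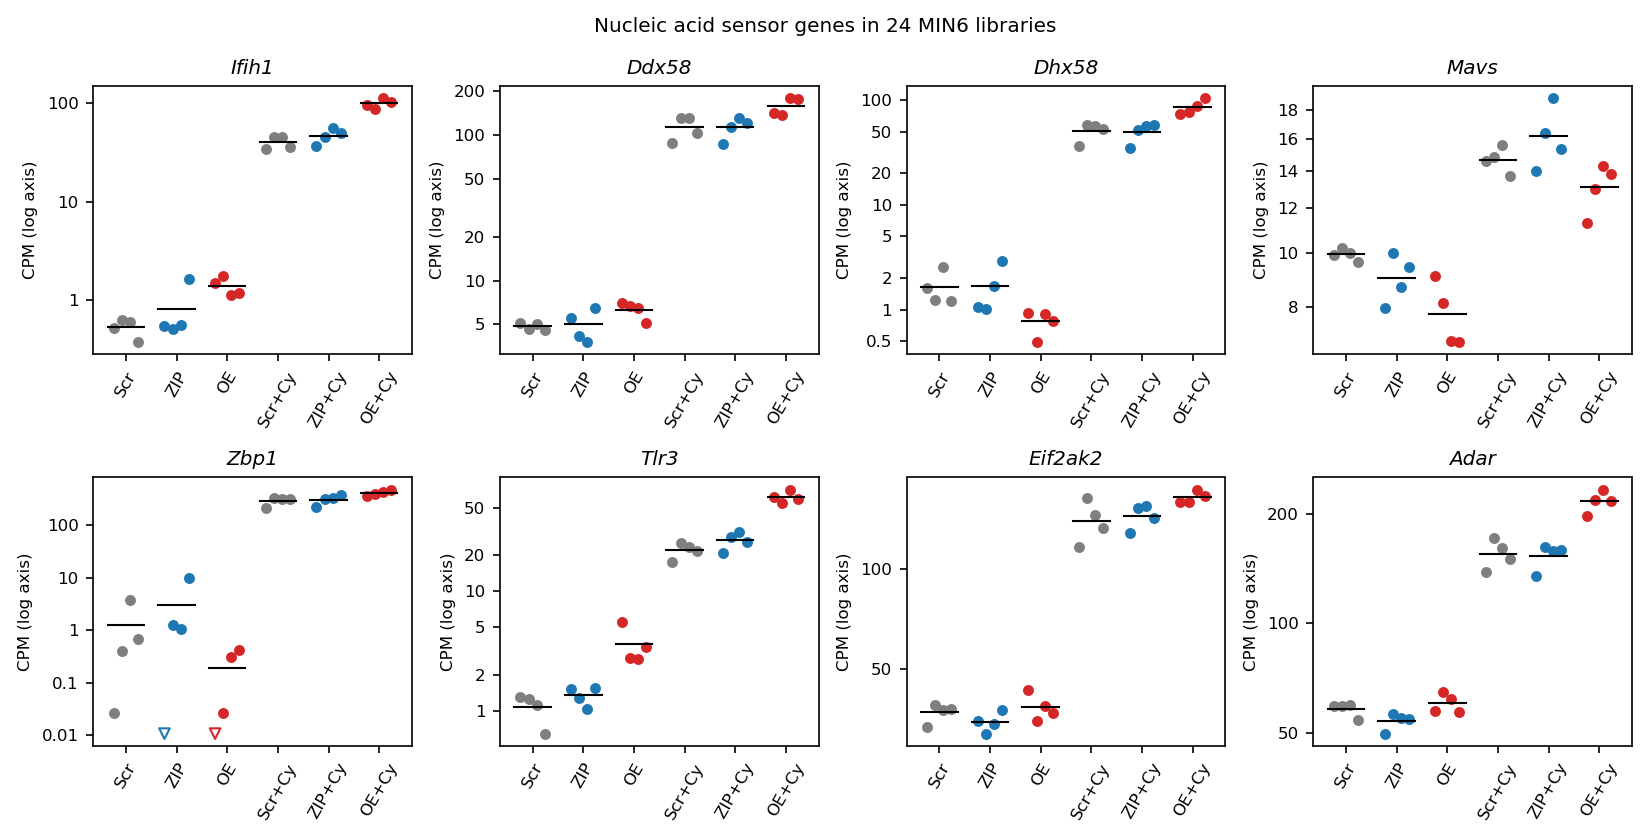
CPM of the 8 genes in each of the 24 libraries, on logarithmic axes that differ between panels. Points are libraries in replicate order, lines are means of 4 libraries, and open triangles mark 2 libraries with 0 reads of Zbp1. For every gene all 12 treated libraries lay above all 12 untreated ones.

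Cytokines raised the whole set. With genes called from 1.5-fold upwards if their unadjusted p was under 0.05, 7 of the 8 genes were called higher in Scr+Cy than in Scr, against 7.88% of all genes. The counts were 8 of 8 in ZIP (7.28% of all genes higher) and 8 of 8 in OE (13.0%), and the median log2 fold change of the set was 4.42, 4.40 and 4.36, beside medians of 0.00, -0.01 and 0.02 over all genes. For each gene the 12 treated libraries did not overlap the 12 untreated ones. The gene outside the call was Mavs in Scr, whose change lay just under the fold limit. Adjusted p-values throughout come from edgeR's quasi-likelihood test and were adjusted over the whole table by the Benjamini-Hochberg method.

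Among the RIG-I-like receptors, Ifih1 had the lowest mean level per length of exon before treatment in each line (0.0646 CPM per kb in Scr, 0.0999 in ZIP and 0.169 in OE). Its CPM was 0.513, 0.632, 0.594 and 0.372 in Scr (12 to 22 reads) and 34.4, 45.8, 45.6 and 36.1 in Scr+Cy. That was a 76.0-fold rise (95% interval 54.6 to 106, adjusted p = 4.25e-16). In ZIP it went from 0.549, 0.511, 0.558 and 1.65 to 36.9, 45.6, 55.8 and 50.2 CPM. ZIP replicate 4 lay well above its 3 neighbours before treatment, and the 57.1-fold rise of that line (log2 fold change 5.84 ± 0.22, SE) became 6.44 on the log2 scale without it. In OE the libraries moved from 1.48, 1.74, 1.13 and 1.18 to 96.8, 88.0, 113 and 103 CPM, a 72.1-fold rise (adjusted p = 1.99e-17). All OE+Cy libraries lay above all Scr+Cy and ZIP+Cy libraries, and the intervals of the 3 fold changes overlapped.

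Ddx58, the receptor for short and 5′-triphosphate RNA, started higher and rose about 23-fold to 25-fold in each line. Its CPM was 5.13, 4.63, 5.03 and 4.61 in Scr and 87.5, 131, 130 and 103 in Scr+Cy, 23.2-fold higher (adjusted p = 4.51e-16). In ZIP it went from 5.56, 4.19, 3.78 and 6.45 to 86.9, 113, 131 and 120 CPM, 22.6-fold higher. In OE it went from 6.98, 6.64, 6.51 and 5.14 to 142, 136, 178 and 176 CPM, 24.9-fold higher. The standard error of each log2 fold change was 0.17, and the response of neither ZIP nor OE was called different from that of Scr.

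Dhx58, the regulatory member of the family, was the RIG-I-like receptor whose response differed between lines. Scr libraries held 1.62, 1.24, 2.53 and 1.21 CPM before and 36.6, 58.0, 56.1 and 52.8 CPM after cytokines, a 30.9-fold rise (log2 fold change 4.95 ± 0.25, SE). ZIP libraries held 1.06, 1.02, 1.7 and 2.89 CPM before and 35.2, 51.4, 56.2 and 57.2 CPM after, a 29.5-fold rise. OE libraries held 0.937, 0.49, 0.91 and 0.786 CPM before and 73.6, 77.0, 88.5 and 104 CPM after, a 110-fold rise (log2 fold change 6.78 ± 0.28, SE, adjusted p = 1.1e-15). OE thus began below both other lines and ended above them, with no overlap between its libraries and those of Scr or ZIP at either stage.

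Mavs, the adaptor that both signalling receptors share, moved least. Its CPM was 9.9, 10.2, 10.0 and 9.6 in Scr and 14.6, 14.8, 15.6 and 13.7 in Scr+Cy. The fold change of 1.48 (95% interval 1.28 to 1.7, adjusted p = 0.000148) was under the limit of 1.5. In ZIP it went from 7.94, 9.99, 8.68 and 9.41 to 14.0, 16.4, 18.9 and 15.3 CPM, 1.79-fold higher, and in OE from 9.07, 8.13, 6.95 and 6.91 to 11.3, 13.0, 14.3 and 13.8 CPM, 1.69-fold higher. Treated and untreated libraries of a line did not overlap in any of the 3 lines. The difference between responses missed the threshold both for ZIP (0.28 on the log2 scale, 95% interval -0.01 to 0.57) and for OE (0.19, -0.09 to 0.48).

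Tlr3, the endosomal receptor, rose 19.9-fold in Scr, 19.7-fold in ZIP and 17.0-fold in OE. Scr libraries went from 1.32, 1.26, 1.13 and 0.65 to 17.4, 25.4, 23.2 and 21.7 CPM (adjusted p = 1.15e-13). ZIP libraries went from 1.54, 1.28, 1.05 and 1.55 to 20.7, 28.6, 31.4 and 25.9 CPM. OE libraries went from 5.56, 2.77, 2.7 and 3.44 to 61.3, 55.0, 70.4 and 58.4 CPM (adjusted p = 8.22e-15). OE was higher than Scr and ZIP at both stages, and the fold changes lay within each other's intervals.

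Zbp1, the sensor of Z-form nucleic acid, had the largest change of the 8 genes in every line and the least certain one. Untreated libraries held 1, 14, 122 and 22 reads in Scr, 0, 34, 34 and 295 in ZIP, and 0, 1, 11 and 13 in OE. The libraries Scr replicate 3 and ZIP replicate 4 stood far above the rest of their groups. After cytokines the CPM was 207, 321, 307 and 317 in Scr, 217, 310, 323 and 370 in ZIP and 353, 397, 423 and 470 in OE, so that the treated levels spread far less than the untreated ones. The fold change was 243 in Scr (95% interval 94.6 to 624, adjusted p = 1.33e-09), 98.7 in ZIP (41.9 to 232, adjusted p = 5.2e-09) and 2195 in OE (677 to 7115, adjusted p = 7.67e-11). In each line 1 library moved the value by over 1.5 times. On the log2 scale, the Scr change of 7.92 became 9.65 without Scr replicate 3, the ZIP change of 6.62 became 8.61 without ZIP replicate 4, and the OE change of 11.10 became 11.78 without OE replicate 4.

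The kinase and the editing enzyme were well expressed at rest and rose by smaller factors. Eif2ak2 went from 33.3, 38.7, 37.6 and 37.8 CPM in Scr to 117, 164, 146 and 133 in Scr+Cy, 3.8-fold higher (adjusted p = 1.69e-14). It rose 4.21-fold in ZIP, from 31.8 to 37.6 CPM before and 129 to 155 after, and 4.32-fold in OE, from 34.8 to 43.2 before and 160 to 174 after. Adar rose 2.68-fold in Scr, from 59.2, 59.3, 59.4 and 54.1 CPM to 138, 172, 161 and 150 (adjusted p = 1.12e-13). It rose 2.85-fold in ZIP, from 49.7 to 56.2 CPM before and 135 to 162 after. In OE it rose 3.59-fold, from 57.2, 64.6, 61.8 and 57.1 to 197, 218, 233 and 217 CPM (adjusted p = 4.44e-16). The OE interval for Adar, 3.24 to 3.98, lay above the Scr interval of 2.42 to 2.96. Adar overlaps Chrnb2 on the opposite strand, and since the use of strand in counting is not given in the sources used here, reads of this pair may not be told apart.

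**Figure D2:**
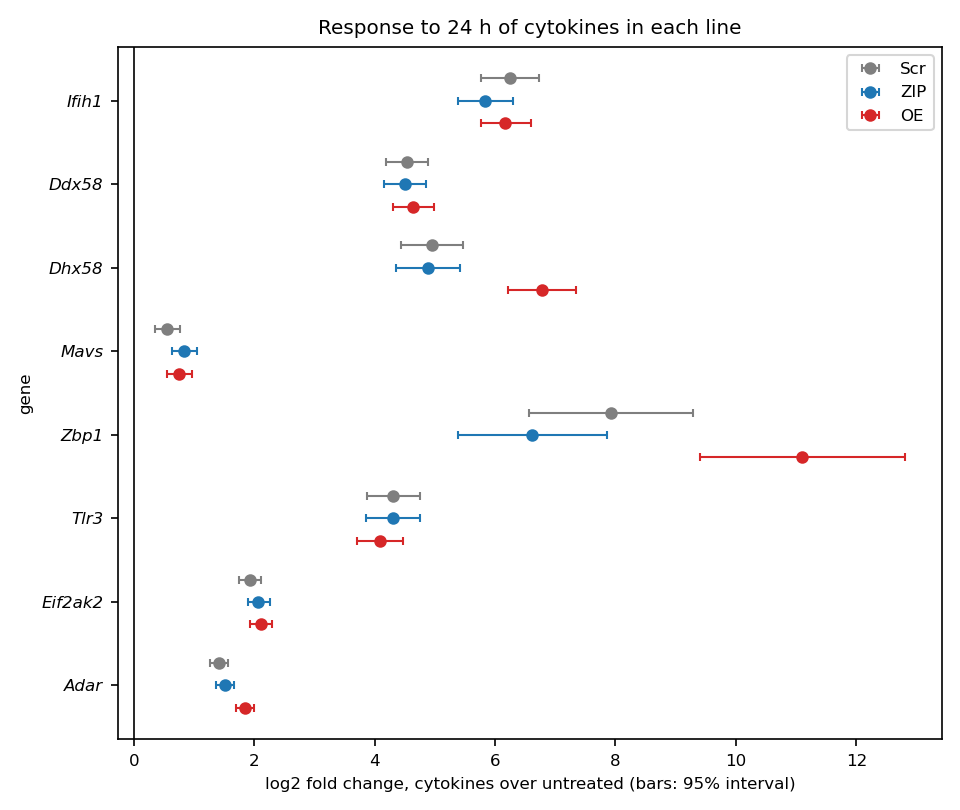
Log2 fold change of each gene, treated over untreated, in Scr (grey), ZIP (blue) and OE (red), with 95% intervals from the model of all 24 libraries. Dhx58 and Adar are the genes at which OE lies above Scr in the test of the difference, and Zbp1 has the widest intervals.

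Per length of the exons, the make-up of the set turned over with treatment. CPM was divided by the length of all annotated exons of a gene in kilobases (CPM per kb), which allows levels of different genes to be set side by side. In Scr the summed level of the 8 genes was 19.1 ± 1.06 CPM per kb (SD, n = 4), of which Eif2ak2 held 37.7%, Adar 37.4% and Mavs 15.5%, while Ifih1 held 0.336%. In Scr+Cy the sum was 173 ± 27.0 CPM per kb, of which Zbp1 held 46.9%, Eif2ak2 15.9%, Adar 11.2%, Ddx58 9.21%, Dhx58 8.93%, Ifih1 2.88%, Mavs 2.58% and Tlr3 2.43%. The kinase and the editor therefore made up most of the resting set, and Zbp1 was the most abundant of these transcripts per length after cytokines in all 3 lines (also 47.5% in ZIP+Cy and 46.1% of the sum in OE+Cy). The sums were 18.5 ± 2.36 in ZIP, 19.3 ± 1.06 in OE, 181 ± 28.7 in ZIP+Cy and 252 ± 24.2 CPM per kb in OE+Cy. Ifih1 and Tlr3 together took a larger mean share in OE+Cy (4.89% and 4.69%) than in Scr+Cy.

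**Figure D3:**
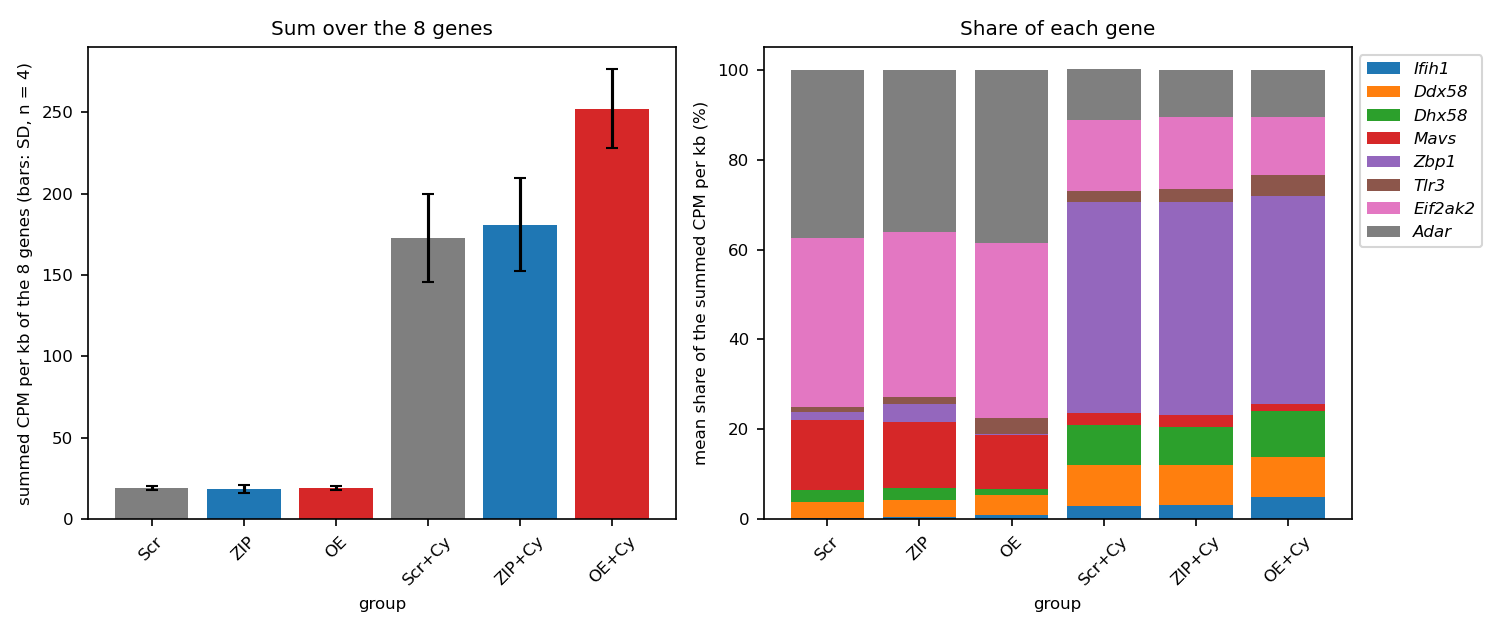
Left, the sum over the 8 genes of CPM per kb of exon, as mean and SD of 4 libraries per group. Right, the mean share of each gene in that sum, where the resting set is led by Adar and Eif2ak2 and the treated set by Zbp1.

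The next comparison asked whether overexpression of miR-146a-5p was accompanied by other sensor levels at rest. Of the 8 genes, 2 were called higher in OE than in Scr (11.3% of all genes were higher) and 1 lower (14.4%). Tlr3 was 3.27-fold higher (3.62 ± 1.34 against 1.09 ± 0.305 CPM, SD, n = 4 each, adjusted p = 2.42e-06) and Ifih1 2.61-fold higher (1.38 ± 0.285 against 0.528 ± 0.115 CPM, adjusted p = 0.00101), with no overlap between libraries. Dhx58 was lower, at 0.781 ± 0.205 against 1.65 ± 0.618 CPM (log2 fold change -1.08 ± 0.37, SE, adjusted p = 0.0188), also with no overlap. Without Scr replicate 3, the highest Scr library, the Dhx58 difference was -0.78 and no longer called (adjusted p = 0.104, the highest of its alternatives, which began at 0.00234). Mavs was lower by less than the fold limit (log2 fold change -0.35 ± 0.10, adjusted p = 0.00478).

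Ddx58 (1.31-fold, 95% interval 1.01 to 1.69), Eif2ak2 (1.04-fold, 0.918 to 1.18) and Adar (1.04-fold, 0.938 to 1.15) were not called between OE and Scr. Zbp1 was at 0.189 ± 0.209 CPM in OE and 1.23 ± 1.74 in Scr. Its log2 fold change of -2.66 (95% interval -5.50 to 0.17) missed the threshold (adjusted p = 0.112). It was called by DESeq2 (-2.70), in a fit of only the groups compared (-2.69) and without Scr replicate 1 (-3.10) or 2 (-2.96), and was -0.92 without Scr replicate 3. Its adjusted p ran from 0.0242 to 0.688 over the alternatives. Without the 3 libraries with connective tissue markers it was -3.10 and called.

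In ZIP, 0 of the 8 genes were called against Scr in either direction, where 7.97% of all genes were higher and 6.91% lower. The log2 differences ran from -0.14 for Mavs (95% interval -0.35 to 0.07) to 1.38 for Zbp1 (-0.26 to 3.03). At an unadjusted p under 0.05 in edgeR 0 genes passed, and DESeq2 called 1, Ifih1 (0.64 on the log2 scale). The 2 largest values, of Zbp1 and Ifih1 (0.63), rested on ZIP replicate 4, without which they were -0.60 and 0.03. Zbp1 was called higher in ZIP without Scr replicate 3 (3.12, adjusted p = 0.0204, the lowest of its alternatives, which reached 0.649), without ZIP replicate 1 (1.78) and without ZIP replicate 3 (1.69). For the other 6 genes the intervals lay within 0.641-fold to 1.86-fold.

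OE against ZIP gave 2 of the 8 genes higher (11.3% of all genes) and 2 lower (16.1%). Tlr3 was 2.67-fold higher (adjusted p = 2.74e-05) and Ifih1 1.69-fold higher (adjusted p = 0.0437), where only ZIP replicate 4 overlapped OE for Ifih1. That Ifih1 difference, 0.75 on the log2 scale, was 1.36 without ZIP replicate 4 and was not called without OE replicate 2 (0.62) or without ZIP replicate 1 (0.62), 2 (0.60) or 3 (0.60). It was also not called in a fit of only the groups compared (0.77) or without the 3 libraries with connective tissue markers (0.61), and its adjusted p ran from 0.000445 to 0.14 over the alternatives. Dhx58 was lower (log2 fold change -1.12, adjusted p = 0.0161) and Zbp1 was lower (-4.05, 95% interval -6.43 to -1.66, adjusted p = 0.00477). Both calls were lost without ZIP replicate 4, at -0.72 for Dhx58 (adjusted p = 0.129, with alternatives from 0.00174) and -2.06 for Zbp1 (adjusted p = 0.159, with alternatives from 0.00038). OE against Scr and OE against ZIP share the OE libraries, so their values are not independent of each other.

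Some sensors were highest together in those untreated libraries. ZIP replicate 4 was the highest of the 4 ZIP libraries in Ifih1 (1.65 CPM), Ddx58 (6.45), Dhx58 (2.89), Zbp1 (9.91) and Eif2ak2 (37.6). For Tlr3 it barely led (1.55 CPM against 1.54 in ZIP replicate 1), and for Mavs (9.41) and Adar (54.6) it was not the highest. Scr replicate 3 was the highest Scr library in Dhx58 (2.53 CPM) and Zbp1 (3.81) and not in Ifih1 or Ddx58. The connective tissue markers were low in both, at 3.8 CPM in ZIP replicate 4 and 1.5 CPM in Scr replicate 3. Leaving out both together kept 3 called genes between OE and Scr and 0 between ZIP and Scr, and gave 3 in place of 4 between OE and ZIP.

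**Figure D4:**
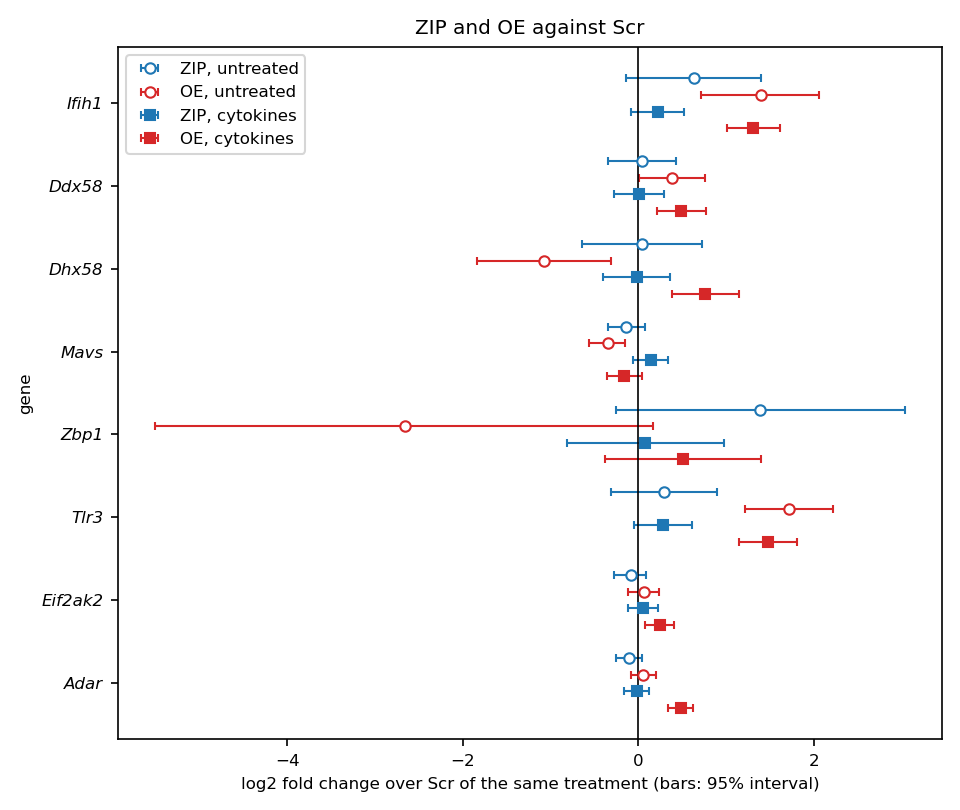
Log2 fold change of each gene in ZIP (blue) and OE (red) over Scr, untreated (open circles) and under cytokines (filled squares), with 95% intervals. Tlr3 and Ifih1 lay above Scr in OE at both stages (1.71 and 1.48 for Tlr3), Dhx58 lay below Scr untreated (-1.08) and above it under cytokines (0.76), and the ZIP intervals all include 0.

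Under cytokines Tlr3, Ifih1 and Dhx58 were higher in OE than in Scr. Of the 8 genes, these 3 were called higher (13.7% of all genes) and 0 lower (14.8%), and the median log2 difference of the set was 0.50 beside 0.01 for all genes. Tlr3 was 2.8-fold higher (61.3 ± 6.59 against 21.9 ± 3.37 CPM, SD, n = 4 each, adjusted p = 2.72e-08), Ifih1 2.48-fold higher (100 ± 10.7 against 40.5 ± 6.08 CPM, adjusted p = 5.07e-08) and Dhx58 1.69-fold higher (85.9 ± 13.9 against 50.9 ± 9.75 CPM, adjusted p = 0.00122). The libraries of the groups did not overlap for any of these genes.

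The other members differed by less than the fold limit. Ddx58 was 1.4-fold higher (adjusted p = 0.00386) and Adar 1.39-fold higher (adjusted p = 2.83e-06), both with no overlap between libraries, and Eif2ak2 was 1.18-fold higher (adjusted p = 0.0182). Zbp1 stood at 411 ± 48.8 against 288 ± 54.4 CPM, and although every OE+Cy library was above every Scr+Cy library, its 1.43-fold difference had an interval of 0.77 to 2.65 and an adjusted p of 0.329. That interval uses a spread estimate shared by all groups, and Zbp1 spread far more in the untreated ones. The adjusted p of this Zbp1 difference ran from 0.00663 to 0.719 over the alternatives. Mavs was 0.894-fold of Scr+Cy (95% interval 0.778 to 1.03). The replicate 1 library was the lowest of Scr+Cy in 7 of the 8 genes, of ZIP+Cy in 8 of 8 and of OE+Cy in 5 of 8. For Zbp1 replicate 1 was the lowest library of every group, treated or not. Connective tissue markers summed to 58.7 CPM in Scr+Cy replicate 1, but to 6.04 in ZIP+Cy replicate 1 and 1.11 in OE+Cy replicate 1. Without the 3 libraries that stood apart by these markers, Tlr3 (1.39 on the log2 scale), Ifih1 (1.24) and Dhx58 (0.63) were still called in OE+Cy.

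ZIP+Cy gave 0 of the 8 genes called against Scr+Cy, where 7.1% of all genes were higher and 8.67% lower. At an unadjusted p under 0.05 edgeR also gave 0, and none of the alternatives tried called any. The log2 differences ran from -0.02 for Dhx58 (95% interval -0.40 to 0.36) and Adar (-0.16 to 0.12) to 0.28 for Tlr3 (-0.05 to 0.61), so changes of the size seen in OE+Cy for Tlr3 and Ifih1 lay outside the intervals. OE+Cy against ZIP+Cy gave 3 of the 8 genes higher (14.7% of all genes), the same 3 as against Scr+Cy. These were Tlr3 (2.3-fold, adjusted p = 6.22e-07), Ifih1 (2.13-fold, adjusted p = 7.59e-07) and Dhx58 (1.72-fold, adjusted p = 0.000883). Both comparisons share the OE+Cy libraries.

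Whether the response itself differed was tested as an interaction, called at an adjusted p under 0.05. Between OE and Scr, 2 of the 8 genes had a larger response in OE (9.64% of all genes) and 0 a smaller one (10.3%). The Dhx58 response was 3.56-fold larger in OE (1.83 ± 0.41 on the log2 scale, SE, adjusted p = 0.00265) and the Adar response 1.34-fold larger (0.42 ± 0.10, adjusted p = 0.00343). Both calls held in every alternative tried, with adjusted p up to 0.0131 for Dhx58 and 0.015 for Adar. Zbp1 had the largest value, 3.18 (95% interval 0.23 to 6.13), which missed the threshold (adjusted p = 0.126), fell to 1.44 without Scr replicate 3 and passed without the 3 libraries with connective tissue markers (3.49, adjusted p = 0.0439, with alternatives from 0.0403 to 0.633). Ifih1 (-0.07, 95% interval -0.78 to 0.63) and Tlr3 (-0.23, -0.83 to 0.38), which were higher in OE at both stages, were not called here.

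Between ZIP and Scr, 0 of the 8 genes differed in response, beside 0.0509% of all genes with a larger and 0.00565% with a smaller response in ZIP. At an unadjusted p under 0.05 in edgeR the count was also 0. The intervals allow more for the low genes than for the abundant ones. They were -0.12 to 0.29 for Adar and -0.10 to 0.40 for Eif2ak2, but -0.85 to 0.72 for Dhx58 and -3.18 to 0.58 for Zbp1, on the log2 scale.

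The groups stood in the same order of mean level for 3 genes. Ifih1, Ddx58 and Tlr3 rose in mean level from Scr through ZIP, OE, Scr+Cy and ZIP+Cy to OE+Cy, and neighbours whose libraries overlapped were Scr and ZIP as well as Scr+Cy and ZIP+Cy for all 3 genes, and ZIP and OE for Ifih1 and Ddx58. Mavs had the lowest mean in OE and the highest in ZIP+Cy, with overlap between all neighbours except Scr and OE+Cy. Over the 24 libraries the log2 CPM of the 28 gene pairs correlated at 0.76 to 1.00 (Pearson), values that mostly repeat the step between treated and untreated groups. For deviations from the group means the correlation was -0.18 to 0.70 with a median of 0.46, and it was highest for Ifih1 with Ddx58. These are descriptions, and libraries of a group share their line and treatment.

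By Pearson correlation of log2 CPM over the 24 libraries, the genes most like each member were Tapbpl, Cd274 and Nfkbia for Ifih1 (0.991 to 0.994), Psmb10, Psme1 and Psme2b for Ddx58 (0.993 to 0.995), Irf7, Parp14 and Tap1 for Dhx58 (0.994 to 0.996) and Gm12250, Gbp3 and Cxcl10 for Zbp1 (0.995 to 0.998). Eif2ak2 was most like Psme2b, Psme2 and Herc6 (0.994 to 0.995), and Adar most like Trafd1, Nub1 and Parp12 (0.994 to 0.995). Tlr3 was nearest to Usp18, Bcl3 and Zc3hav1 at 0.984 to 0.986. Mavs, the gene with the smallest cytokine response, had the loosest neighbours, Fah, Dock4 and Lbp at 0.947 to 0.959. The choice depends on the measure, since a Spearman correlation kept 0 to 2 of the 3 genes named for each member.

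Downstream of the RIG-I-like receptors, 19 of 28 signalling genes were not called in Scr. Of the 28 genes of that pathway, 9 were higher in Scr+Cy than in Scr and 0 lower, with a median log2 fold change of 0.43 beside 0.00 for all genes. Of all genes 7.88% were higher in that comparison. In ZIP 10 were higher (7.28% of all genes) and 1 lower, and in OE 13 were higher (13.0%) and 0 lower. Isg15, a ubiquitin-like modifier, rose 111-fold (in Scr, adjusted p = 5.06e-13), followed by Irf7, the inducible interferon regulatory factor (41.1-fold, adjusted p = 2.67e-13), and Tnfaip3, a brake on NF-κB signalling (5.43-fold, adjusted p = 1.08e-06). Trim25, the ubiquitin ligase that activates RIG-I, rose 2.3-fold. Tbk1, the kinase below Mavs, was 1.36-fold higher and Irf3, its constitutive substrate, 1.18-fold higher, both under the fold limit.

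The interferon that this pathway is known to switch on was barely detected. Ifnb1 had 0 reads in each of the 12 untreated libraries, where a count of 0 allows up to 3 reads. Under cytokines a library held at most 2 reads of it (at most 1 in ZIP+Cy). No fold change is given for it, although its 1 to 2 reads in OE+Cy passed the call and are among the 13 genes counted there. Under cytokines 5 of the 28 pathway genes were higher in OE than in Scr and 1 lower (median 0.18 beside 0.01 for all genes). Of all genes 13.7% were higher and 14.8% lower. Ikbke, a kinase related to Tbk1, was 3.25-fold higher (32.0 ± 3.73 against 9.87 ± 1.87 CPM, SD, n = 4 each, adjusted p = 4.99e-11), Isg15 2.29-fold and Casp8 2.08-fold higher. Casp8 already differed without cytokines, at 27.0 ± 2.18 CPM in OE and 13.0 ± 1.26 in Scr. In ZIP+Cy 2 of 28 were higher and 1 lower than in Scr+Cy, where 7.1% of all genes were higher and 8.67% lower. Both counts were near or below these shares, so the list did not stand out from all genes. The called genes were Azi2 (1.7-fold), Rnf125 (1.53-fold) and Cyld (0.642-fold). Their means differed in the same direction without cytokines. In ZIP and Scr these were 73.5 and 42.1 CPM for Azi2, 2.66 and 1.74 for Rnf125, and 111 and 167 for Cyld.

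Of 18 effectors of double-stranded RNA 17 were listed, Ripk3 not among them, and 12 were higher in Scr+Cy than in Scr (7.88% of all genes were), 0 lower and 5 not called (median 2.77 beside 0.00). All 7 listed genes of the oligoadenylate synthetase family, which includes enzymes activated by double-stranded RNA, rose in every line. Oas2 rose 150-fold in Scr, Oas3 142-fold and Oasl2 117-fold, and the others between 4.67-fold (Oasl1) and 79.3-fold (Oas1a). Mlkl, the executioner of necroptosis below Zbp1, rose 5.85-fold in Scr, 8.47-fold in ZIP and 6.72-fold in OE. The Oas genes are close paralogs, so reads could be split among them and single values are uncertain.

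In OE+Cy against Scr+Cy, 11 of the 17 were higher, beside 13.7% of all genes, and 0 lower (median 0.95 beside 0.01). Oas3 was 6.82-fold higher (196 ± 33.1 against 28.7 ± 8.52 CPM, SD, n = 4 each, adjusted p = 2.96e-09), Ifit2 3.6-fold and Ifit3 3.11-fold. Ppp1r15a, which restores translation after the target of Eif2ak2 is phosphorylated, was 2.13-fold higher in OE+Cy and 1.51-fold higher in ZIP+Cy than in Scr+Cy. Eif2s1, that target, was 1.15-fold higher in OE+Cy, under the fold limit, and Mlkl was 1.2-fold higher with an adjusted p of 0.132. In ZIP+Cy the single gene of the 17 called was Ppp1r15a, where 7.1% of all genes were higher than in Scr+Cy and 8.67% lower. The interaction between OE and Scr was called for 5 of the 17, all with the larger response in OE (9.64% of all genes), among them Ifit2 (2.58 on the log2 scale, adjusted p = 4.33e-06).

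Of 10 DNA sensing genes 5 were higher in Scr+Cy than in Scr (7.88% of all genes were) and 0 lower (median 0.40 beside 0.00), among them Cgas, the DNA receptor (1.6-fold, 20.4 ± 1.59 against 12.8 ± 1.08 CPM, adjusted p = 2.71e-06), and Trex1, a DNA exonuclease (2.99-fold). Samhd1, a nucleotide hydrolase, rose 2.86-fold. Ifi204, a DNA receptor with close paralogs that make its value uncertain, went from at most 4 reads per library in Scr to 5.33 ± 2.49 CPM in Scr+Cy and from 0 reads in every OE library to 8.91 ± 2.76 CPM in OE+Cy. Rnaseh2a, a subunit of ribonuclease H2, was 0.644-fold of Scr+Cy in ZIP+Cy (adjusted p = 7.21e-07). Without cytokines it was also lower in ZIP, at 18.5 ± 1.1 CPM against 31.5 ± 2.12 in Scr. Sting1, the adaptor of Cgas, was near the detection limit in Scr (0.172 ± 0.119 CPM, 0 to 10 reads) and ZIP (0.181 ± 0.0629) and higher in OE (1.5 ± 0.414). Under cytokines it reached 0.743 ± 0.145 CPM in Scr+Cy and 7.39 ± 0.31 in OE+Cy, 9.9-fold higher (adjusted p = 9.74e-09). Ddx41, another proposed DNA sensor, was 0.526-fold of Scr+Cy in OE+Cy (adjusted p = 2.83e-11). Without cytokines it was also lower in OE, at 59.2 ± 2.24 CPM against 105 ± 1.87 in Scr. Unc93b1, the chaperone that brings Tlr3 and its relatives to endosomes, rose 4.72-fold in Scr, 7.79-fold in ZIP and 13.7-fold in OE. Tlr7 did not exceed 0.635 CPM in any library and Tlr9 did not exceed 0.643, and Tlr8 was not listed.

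Transcription factors that act on interferon-response genes rose in all lines. In Scr, Irf1 rose 14.6-fold (adjusted p = 1.59e-18), Irf9 13.7-fold and Stat2 8.29-fold. The interaction between OE and Scr was called for each of them, with responses larger in OE by 1.28 (Irf1), 0.76 (Stat2) and 0.41 (Irf9, adjusted p = 0.0459) on the log2 scale. Of all genes 9.64% had a larger response in OE. Irf1 was called higher in OE+Cy than in Scr+Cy (1.77-fold, adjusted p = 5.18e-08), while Irf9 (1.17-fold) and Stat2 (1.27-fold) lay under the fold limit, and none of the 3 was called in ZIP+Cy.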

How the data were processed

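RNA was sequenced from 24 MIN6 libraries in 6 groups of 4, taken with their replicate numbers from the labels. According to the submitters' processing notes, reads were checked with FastQC and aligned to mm10 with STAR 2.7.8a in Partek 11.0.24.0204, and DESeq2 was used for differences. The study's methods name RefSeq transcripts as the annotation and give other versions of Partek and STAR, and the use of strand is not given in the sources used here. The authors deposited estimated counts per gene, of which 30.3% were not whole, for genes with at least 10 reads in total. They also deposited a normalized signal, equal to these counts divided by 1 factor per library (0.8364 to 1.1991), which was not tested. Estimated counts were rounded. A model of 6 group means over all 17696 genes was fitted in edgeR 4.0.16 (R 4.3.3) with TMM scaling and the quasi-likelihood test. The standard error is the log2 fold change divided by the square root of F. Calls needed a change of 1.5-fold or more together with an unadjusted p under 0.05, as in the study, and interactions at a Benjamini-Hochberg adjusted p under 0.05. Libraries held 26657792 to 37168232 reads, and counts of a few reads carry wide counting error. The fit was tested on simulated data. Replicates of a group were not duplicates.

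All 8 members are named in every comparison. From each list and cytokine comparison, and from ZIP+Cy and OE+Cy against Scr+Cy, up to 3 called genes with the largest fold change, a mean of 1 CPM or more on one side and libraries that do not overlap are named, beside Ifnb1, Ripk3, Mlkl, the Oas genes, Cgas, Sting1, Irf1, Irf7 and Irf9. For each member, the 3 genes with the highest Pearson correlation are named. Trim25, Tbk1, Irf3, Eif2s1, Stat2, Tlr7, Tlr8 and Tlr9 were named after their values were seen. Some genes that the rule selects are not reported here. The members and lists were chosen with earlier results of these data known. Replicate numbers in the labels paired the libraries in 6 of 9 comparisons, where deviations of same-numbered libraries from their group means correlated at over 0.1 in every pair (0.141 to 0.634 over 12670 genes). Alternatives were DESeq2 1.42.0, its size factors, a filter on low counts (14535 genes), the replicate block, fits of only the groups compared, a different p threshold, and leaving out each library. Leaving out Scr replicate 3 with ZIP replicate 4, and leaving out Scr, ZIP and Scr+Cy replicate 1, were chosen after seeing the data. Lengths are exon unions of GENCODE M21. Dhx58, Tlr3 and Eif2ak2 overlap unlisted genes on the opposite strand.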

Additional observations from a re-analysis of the deposited data

Results flagged for a closer look

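Of 48 sets of 4 libraries (8 genes in 6 groups), 5 held a library far from the other 3, where chance alone gives about 1 in 20. ZIP replicate 4 was the highest ZIP library in Ifih1 (1.65 CPM) and in Zbp1 (9.91 CPM). Scr+Cy replicate 1, with 58.7 CPM of connective tissue markers, was the lowest in Zbp1 (207 CPM). Replicate 1 was also lowest in Zbp1 in ZIP+Cy (217 CPM) and OE+Cy (353 CPM), with 6.04 and 1.11 CPM of these markers. Adar was lowest in Scr replicate 4 (54.1 CPM) and, under cytokines, in ZIP+Cy replicate 1 (135 CPM). The part of the libraries' other features in these values was not tested.

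The response to cytokines differed between OE and Scr for Dhx58 (1.83 on the log2 scale, from 1.65 to 50.9 CPM in Scr and from 0.781 to 85.9 in OE) and for Adar (0.42, from 58.0 to 155 CPM in Scr and from 60.2 to 216 in OE).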

How the results depend on the processing

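No log2 fold change of a member called in the main edgeR fit turned its direction under any alternative. Zbp1 in ZIP against Scr, not called there, ran from -0.6 to 3.12 with 1 library left out and was called at 3.12. The member counts of the cytokine comparisons stayed at 7 or 8. Of 1488 recomputed member values 1465 kept their side of the threshold, 13 gained a call and 10 lost one. Members called between OE and ZIP numbered 2 to 4 when 1 library was left out, with 2 without ZIP replicate 4, and between ZIP and Scr 0 to 1, with 1 also under DESeq2 (Ifih1). Between OE and Scr they numbered 2 to 4. Without Scr+Cy replicate 4 Mavs passed the fold limit in Scr (0.59).

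Over all genes, the response called different between OE and Scr counted 3537 genes, and 5601 at an unadjusted p under 0.05. Between ZIP and Scr it counted 10 genes (7 to 12 with 1 library left out), 41 under DESeq2, 45 with the replicate number as a block and 1137 at an unadjusted p under 0.05. The replicate block changed no call of a member. In OE against Scr, OE+Cy against Scr+Cy and OE+Cy against ZIP+Cy the numbers did not pair the libraries (correlations down to -0.129, 0.000631 and 0.0872). The cause of these shifts was not tested. Depth limits Zbp1, Ifih1, Dhx58 and Tlr3 in untreated libraries, where a few reads move a fold change.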
